A study of Mus musculus with 21 samples.

Results

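Myosin light chains and the kinase that phosphorylates them were followed across single mouse myofibers of the slow type 1 and the fast type 2B. The 7 genes were Myl1, Myl3, Myl6b, Myl4, Mylpf, Myl2 and Mylk2, of 34592 gene names on the array. Every probe that carried one of these names was taken, which gave 8 probes, 2 of them for Myl1. All 8 passed the filter on low signal, as did 46977 of the 55681 probes of the array.

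Each muscle myosin molecule has a pair of heavy chains, and each head of a heavy chain carries an essential and a regulatory light chain around its lever arm. Slow and fast myofibers use different genes for both kinds, and the developing muscle and the heart use others or share the slow ones. Phosphorylation of the regulatory light chain by a kinase that calcium and calmodulin switch on makes force rise at low calcium, and in fast muscle it accompanies the gain in twitch force after a train of stimuli.

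The data were 21 one-colour arrays, each of 1 myofiber from 9 wild-type CD1 mice that were 3 months old. The labels give the mice as male, whereas the study's methods give the animals used for this experiment as female. Type 1 was represented by 11 myofibers of the soleus from 6 mice, and type 2B by 10 myofibers of the extensor digitorum longus (EDL) from 6 mice, with 3 mice in both groups. A clipped end of each myofiber was typed by its myosin heavy chain protein on a gel, so that light chains had no part in the classification. No treatment or transgene was involved, and type and muscle cannot be told apart, since all type 1 myofibers came from the soleus and all type 2B from the EDL. Myofibers are named by their muscle (S or E), the number of the myofiber and that of the mouse. Equal masses of amplified cDNA were labelled, so that a signal is relative to a myofiber's whole RNA and says nothing of the RNA content per myofiber.

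The share of probes well above background was between 41.2% and 79.8% in type 1 and between 38.7% and 74.6% in type 2B, and no spot was saturated. The first slide, which held 4 myofibers of each type, was brighter than the other 5 before normalization. Its 75th percentile of the signal was 335 to 520, against 52.8 to 180 on the others.

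The typed heavy chain could be checked against its own mRNA. Myh4, the 2B heavy chain, had a log2 signal of 14.42 to 15.81 in type 2B and of 1.80 to 8.61 in type 1. Myh7, the slow heavy chain, was at 15.53 to 16.28 in 10 type 1 myofibers and at 6.78 to 7.84 in type 2B. The 11th type 1 myofiber, S6.4 of mouse 4, went against its label. Its Myh7 signal was 9.22, and its signal for Myh2, the 2A heavy chain, was 15.22, above the highest of the other type 1 myofibers at 13.03. Its signal for Myh1, the 2X heavy chain, was 9.48. This was above the other type 1 myofibers (highest 5.97) and inside the type 2B range of 1.72 to 12.04. Results are therefore given with and without the myofiber labelled type 1 S6.4.

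The probes define what each measurement covers, and the bases shown here are those of the array's design, 5′ to 3′. Myl1 makes a long (1f) and a short (3f) essential light chain from separate promoters, which share most of their exons. A Myl1 probe that the array lists with the accession of 3f and without that of 1f is called the 3f probe here, and it is shown whole because it spans an exon junction (mm9, chr1:66976853-66981100, minus strand). Its match to the 1f sequence was not tested, so that its values are those of the probe and may hold both isoforms.
Myl1, 3f probe: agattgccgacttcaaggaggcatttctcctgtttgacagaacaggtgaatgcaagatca
The other Myl1 probe is listed for both isoforms and lies at base 856 of the transcript (mm9, chr1:66970948-66971007, minus strand), and its first 30 bases are printed.
Myl1, common probe: ttataagccttgagttttcatgacaaacat

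For the other genes a stretch of 30 bases is given, chosen to hold the AATAAA polyadenylation signal where a probe has one, in capitals. The probes of Myl3 (mm9, chr9:110672238-110672297, plus strand), Myl6b (mm9, chr10:127931214-127931273, minus strand) and Mylk2 (mm9, chr2:152748725-152748784, plus strand) carry it, at the end of the mRNA where many array probes are placed.
Myl3: tgtggccttatgAATAAAtggtttccttcc
Myl6b: ttacagttttgaAATAAAaacatggttcct
Mylk2: ttgtgccttgtaAATAAAaacacaggttgg
Those of Myl4 (mm9, chr11:104448441-104448500, plus strand), Myl2 (mm9, chr5:122556732-122556791, plus strand) and Mylpf (mm9, chr7:134355191-134355250, plus strand) do not. The Mylpf probe begins at base 69 of its transcript, near the 5′ end, whereas that of Myl4 begins at base 790 and that of Myl2 at base 501.
Myl4: gttactgttacggagtattggactcacatg
Myl2: ataagaatttggtccacatcattacccacg
Mylpf: tataaccccagaagaactgctccaagcaga
No 2 of the 8 probes shared a run of more than 11 bases, in spite of the relatedness of the light chains.

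Of the 8 probes, 5 passed the Bonferroni threshold of 0.05 in limma (mouse as a random block), where 1.43% of all probes tested did. They stood for 5 genes if the 3f probe is counted for Myl1, and for 4 of 7 genes if each gene is read by its brightest probe. Myl3, Myl2 and Myl6b were lower in type 2B (background 0.82%), and Mylpf and the 3f probe of Myl1 were higher (0.611%). With the Benjamini-Hochberg adjustment 7 of 8 passed, beside 7.56% of all probes, and Myl4 was the exception. Of these, 4 were higher (background 3.47%) and 3 lower (4.09%). The median size of the difference was 3.52 on the log2 scale for the 8 probes and 0.336 for all probes tested. Without S6.4 the count stayed at 5. The random block had almost no weight (consensus correlation -0.018), and with mouse as a fixed effect, which sets myofibers of the 3 shared mice against each other, the count was 2, Myl3 and Myl2. It was 3 by the methods' t-test and 3 without mouse 3.

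**Figure D1:**
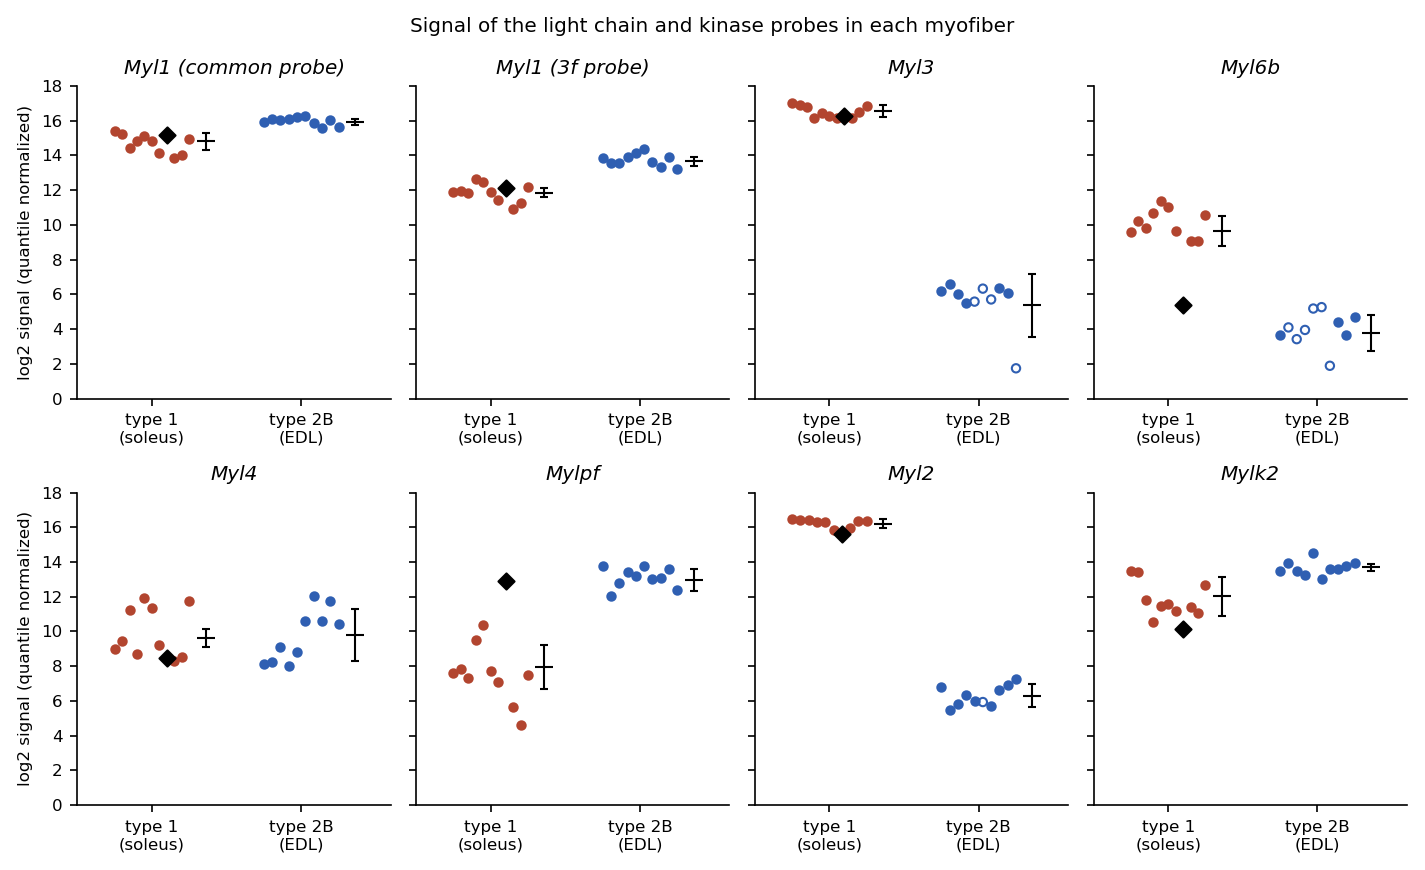
Log2 signal (quantile normalized, y axis) of each probe in each myofiber of type 1 (red) and type 2B (blue). Open circles were not well above background, the black diamond is S6.4, and the bar beside each group is the mean ± SD of 6 mouse means. Myl3 and Myl2 lay between 15.63 and 17.00 in type 1 and at or below 7.25 in type 2B, whereas Myl4 spread over the same range in both.

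Among the essential light chains, Myl3, the slow form shared with the heart's ventricle, had one of the widest gaps of the whole array. The type 1 myofibers ran from 16.13 in S5.9 through a median of 16.45 to 17.00 in S10.10. The type 2B myofibers ran from 1.74 in E9.6 through a median of 6.05 to 6.59 in E11.9. Every type 1 myofiber was far above every type 2B myofiber, and S6.4, at 16.29, lay among the type 1 myofibers. The mouse means were 16.56 ± 0.34 and 5.37 ± 1.80 (SD, n = 6 mice each). The difference, type 2B minus type 1, was -10.89 (SE 0.42, limma, Bonferroni adjusted p = 1.1e-13), a fold of 1892. It ranked 4th among the probes that were lower in type 2B. In type 2B the probe was well above background in 6 myofibers, so that the size of the fold rests in part on signal near background.

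Myl6b encodes an essential light chain of slow muscle that is also made in non-muscle cells. Its signal ran from 5.36 in S6.4 through a median of 9.83 to 11.39 in S15.2 in type 1. In type 2B it ran from 1.89 in E7.7 through a median of 4.02 to 5.26 in E15.3. The types did not overlap, but S6.4 sat just above the highest type 2B myofiber and the next type 1 myofiber was at 9.07. The difference was -5.67 (SE 0.56, limma, Bonferroni adjusted p = 3.4e-05), and it was -6.11 (SE 0.39) without S6.4. The mouse means were 9.64 ± 0.88 and 3.76 ± 1.05 (SD, n = 6 mice each). In type 2B the probe was well above background in 4 myofibers, and the size of the difference depends on the background, with -3.38 under normexp correction. With mouse as a fixed effect it was -5.11 and missed the threshold (limma, Bonferroni adjusted p = 0.23), as it did by the methods' t-test (-5.91).

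Myl1, the gene of the fast essential light chains, was bright in both types on its common probe. Type 1 ran from 13.84 in S7.2 through a median of 14.86 to 15.39 in S10.10, and type 2B from 15.58 in E8.3 through a median of 16.04 to 16.29 in E15.3. The types did not overlap and lay close together. The difference of 1.25 (SE 0.21), a fold of 2.38, missed the Bonferroni threshold (limma, adjusted p = 0.23) and passed with Benjamini-Hochberg (adjusted p = 2.6e-04). Scaling by the 75th percentile instead of quantiles put it at 1.61 and past the threshold (limma, Bonferroni adjusted p = 7.0e-04).

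The 3f probe, whose bases are printed above, passed. Its signal ran from 10.91 in S7.2 through 11.91 to 12.62 in S14.2 in type 1, and from 13.20 in E9.6 through 13.75 to 14.37 in E15.3 in type 2B. The lowest type 2B myofiber was above the highest type 1 myofiber. The mouse means were 11.85 ± 0.25 and 13.66 ± 0.27 (SD, n = 6 mice each), and the difference was 1.88 (SE 0.22, limma, Bonferroni adjusted p = 5.8e-04), a fold of 3.67. Without mouse 3, which gave 7 of the 21 myofibers, it was 1.67 and missed the threshold (limma, Bonferroni adjusted p = 0.91), as it did with mouse as a fixed effect (2.12, adjusted p = 0.65). Whether the 2 probes of Myl1 differ in their fold was not tested.

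Myl4, the essential light chain of embryonic muscle and of the atrium, did not separate the types. Its signal ran from 8.31 in S7.2 through 9.21 to 11.91 in S15.2 in type 1, and from 8.02 in E13.3 through 9.76 to 12.04 in E7.7 in type 2B. It was well above background in all 21 myofibers, and both groups spread widely, with an SD over myofibers of 1.44 and 1.51. The difference was -0.03 (95% interval -1.28 to 1.21, limma, Benjamini-Hochberg adjusted p = 0.99). Myofibers of the same mouse could lie far apart. S14.2 and S15.2 of mouse 2 were at 8.71 and 11.91, and E9.5 and E12.5 of mouse 5 at 11.73 and 9.08.

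Of the regulatory light chains, Myl2 is the slow form and that of the ventricle. In type 1 it ran from 15.63 in S6.4 through a median of 16.33 to 16.50 in S10.10, over 10 myofibers, since the spot of S15.2 carried an outlier flag and was left out. In type 2B it ran from 5.46 in E11.9 through 6.17 to 7.25 in E9.6. No type 2B myofiber came near the type 1 range. The mouse means were 16.21 ± 0.27 and 6.29 ± 0.67 (SD, n = 6 mice each). The difference was -9.93 (SE 0.23, limma, Bonferroni adjusted p = 9.5e-18), a fold of 977. The gap ranked 9th among the probes lower in type 2B, and in type 2B the probe was well above background in 9 myofibers.

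Mylpf, the fast regulatory light chain, went the other way. Type 1 myofibers ran from 4.59 in S7.3 through a median of 7.58 to 12.90 in S6.4. Type 2B myofibers ran from 12.03 in E11.9 through 13.14 to 13.79 in E15.3. S6.4 alone overlapped the type 2B myofibers, and the highest of the other type 1 myofibers was S15.2 at 10.39. The mouse means were 7.96 ± 1.28 and 12.96 ± 0.64 (SD, n = 6 mice each). The difference of 5.08 (SE 0.69, limma, Bonferroni adjusted p = 0.0081), a fold of 33.9, grew to 5.57 (SE 0.52) when S6.4 was left out. Without mouse 3 it was 4.37 and without mouse 5 it was 5.06, and both then missed the threshold (limma, Bonferroni adjusted p = 1 and 0.073). It was also missed with mouse (5.76) or slide (5.60) as a fixed effect (limma, Bonferroni adjusted p = 1 and 0.15) and by the methods' t-test, whose difference was 3.25.

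Mylk2 encodes the skeletal muscle light chain kinase, whose substrate is the regulatory light chain. Its signal ran from 10.14 in S6.4 through a median of 11.47 to 13.50 in S10.10 in type 1. In type 2B it ran from 13.05 in E15.3 through 13.58 to 14.49 in E14.3. In type 1, S10.10 and S10.8, at 13.50 and 13.43, reached into the type 2B range, and the other 9 lay below it. The difference was 1.95 (SE 0.36), a fold of 3.87, which missed the Bonferroni threshold (limma, adjusted p = 0.74) and passed with Benjamini-Hochberg (adjusted p = 7.0e-04). The mouse means were 12.03 ± 1.12 and 13.70 ± 0.19 (SD, n = 6 mice each), and they touched, with the highest type 1 mean at 13.4993 in mouse 10 and the lowest type 2B mean at 13.4994 in mouse 4.

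**Figure D2:**
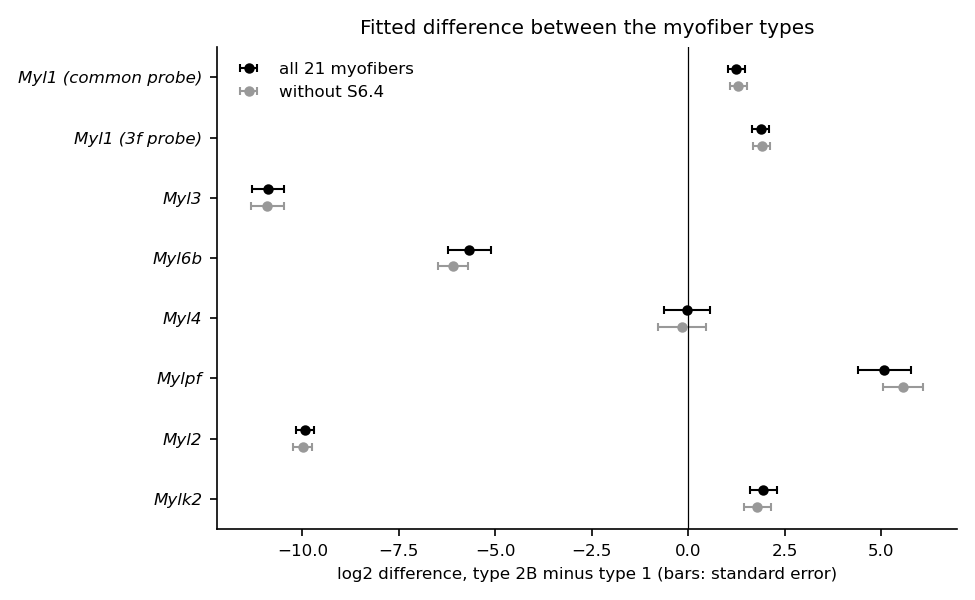
Fitted log2 difference of each probe, type 2B minus type 1 (x axis, bars are standard errors), over all 21 myofibers (black) and without S6.4 (grey). Mylpf moved from 5.08 to 5.57 and Myl6b from -5.67 to -6.11, and the sign of no probe turned.

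With the animal as the unit, 7 of the 8 probes had mouse means without overlap between the types, as had 4.95% of all probes tested. Myl4 was again the exception, and Mylk2 counted by a gap in the fourth decimal alone. For those 7 the exact permutation test of the 6 + 6 mouse means, with 924 groupings, gave a two-sided p = 0.0022, the smallest that this design allows, and for Myl4 it gave p = 0.82. As 3 mice gave means to both groups, the test treats those as separate animals. Counted by myofibers, 5 of 8 probes did not overlap (1.34% of all probes), and 6 without S6.4.

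The 3 mice with both types allowed the comparison inside an animal, with few myofibers in each. In mouse 9 it set S5.9 alone against E11.9 alone. In mouse 4 it set S6.4 and S9.4 against E10.4, and S9.4 alone where S6.4 was left out. Mylpf was higher in type 2B by 6.85 in mouse 3, 3.57 in mouse 4 and 4.93 in mouse 9. The difference of Myl3 was -10.58, -10.35 and -9.54 there, close to that over all mice. Mylk2 was higher by 2.11, 2.09 and 2.73. Without S6.4 the value of mouse 4 rose to 6.29 for Mylpf and dropped to 0.81 for Mylk2. Myl4, which did not pass over all mice, was lower in type 2B in all 3, with differences of -0.86, -2.03 and -1.0, and that of mouse 4 was -3.67 without S6.4. With mouse as a fixed effect Myl4 was at -1.16 and did not pass (limma, Benjamini-Hochberg adjusted p = 0.73). The pair of mouse 9 crossed slides, with S5.9 on the first slide and E11.9 on another.

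**Figure D3:**
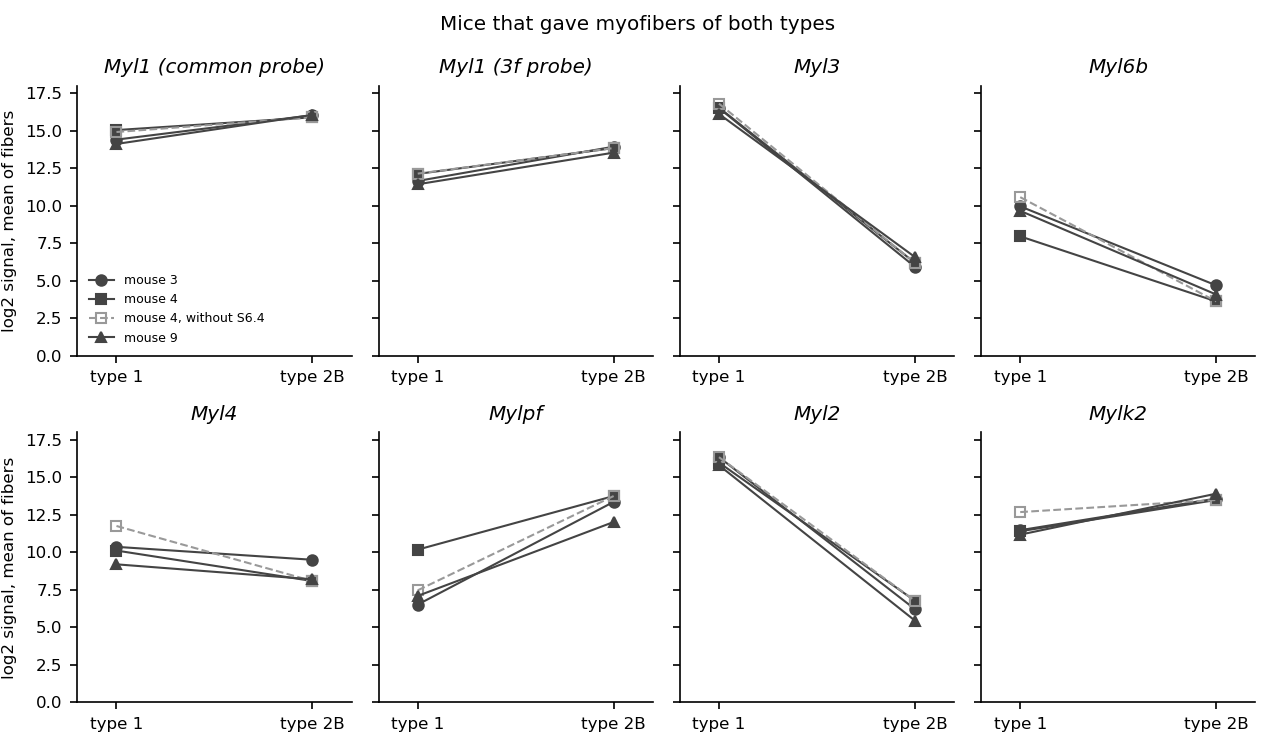
Mean log2 signal (y axis) of the type 1 and type 2B myofibers of mice 3, 4 and 9, joined by a line for each mouse. Each point of mouse 9, and the type 2B point of mouse 4, is a single myofiber. The dashed line is mouse 4 without S6.4, and lines for Myl3, Myl2 and Myl6b fell from type 1 to type 2B in each mouse while those of both Myl1 probes, Mylpf and Mylk2 rose.

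The slides gave the same directions except for Myl4. On the first slide Myl4 was higher in type 2B by 1.59 and on the other slides it was lower, with a difference of -1.03. The difference of Mylk2 was 2.77 on the first slide, where the 4 + 4 myofibers did not overlap, and 1.48 on the others, where they did. Both type 1 myofibers that reached the type 2B range were on other slides. Mylpf differed by 5.64 and 4.79, Myl6b by -4.19 and -6.52, and Myl2 by -9.06 and -10.51. With the slide as a fixed block the differences were 0.07 for Myl4, 1.79 for Mylk2, 5.60 for Mylpf, -4.82 for Myl6b and -9.78 for Myl2. Whether a difference changed with the slide was not tested.

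The myofiber S6.4 split the light chains. Its slow forms Myl3 and Myl2 were at 16.29 and 15.63, more than 8 log2 units above every type 2B myofiber. Its fast regulatory light chain Mylpf, at 12.90, was inside the type 2B range of 12.03 to 13.79, and its Myl6b, at 5.36, was next to the type 2B range. Myl1, at 15.19, was inside the type 1 range, and Mylk2, at 10.14, was below every other myofiber of either type.

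Other genes of the sarcomere were divided in S6.4 as well. Its slow troponin T Tnnt1 was at 14.82, near the other type 1 myofibers (15.62 to 16.31) and far from type 2B (6.62 to 9.01). Slow troponin I, Tnni1, was at 8.62, close to the type 2B range of 6.70 to 8.25, and slow troponin C, Tnnc1, was at 10.64, within that of 9.85 to 11.00. Fast troponin T and I, Tnnt3 and Tnni2, were at 16.31 and 16.38, both inside the type 2B ranges. Myh4 was at 6.005, inside the type 1 range.

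**Figure D4:**
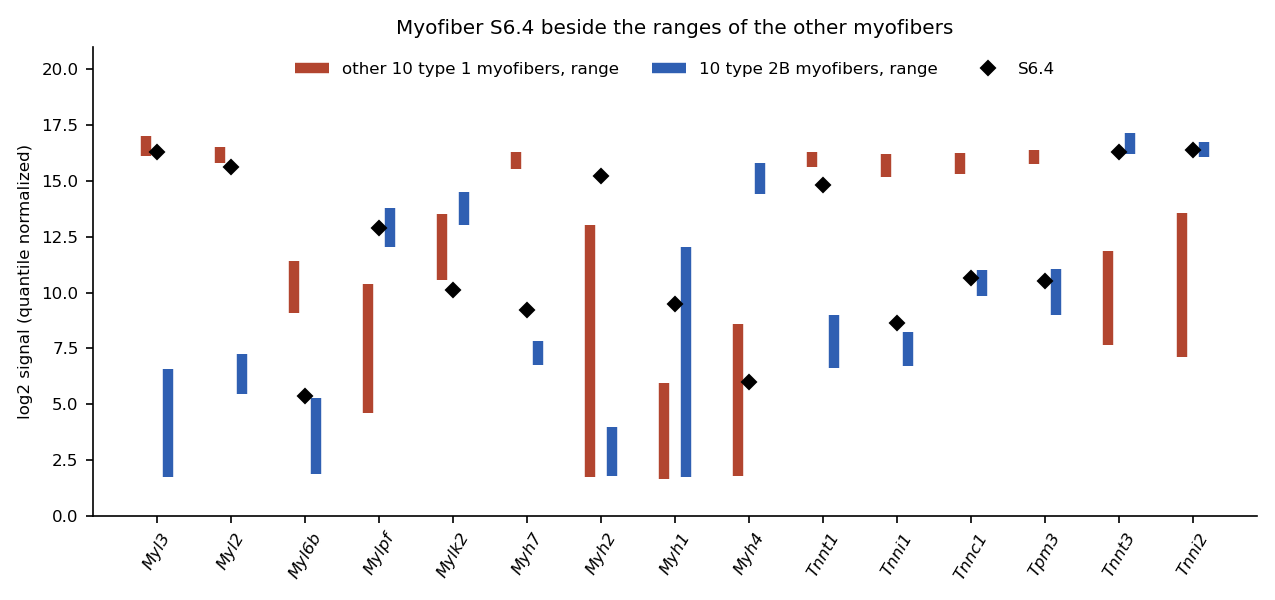
Log2 signal (y axis) of S6.4 (diamond) for 5 light chain and kinase genes and 10 other genes of the sarcomere, beside the range of the other 10 type 1 myofibers (red) and of the 10 type 2B myofibers (blue). S6.4 was with type 1 for Myl3 (16.29) and with type 2B for Mylpf (12.90), and it was above all others for Myh2 (15.22).

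The 5 other light chains on the array, of 6 listed, included 1 gene higher and 1 lower in type 2B by the Bonferroni threshold. Myl7, the regulatory light chain of the atrium, was lower by 3.20 (SE 0.41, limma, adjusted p = 0.0040), with type 1 at 6.13 to 9.21 and type 2B at 2.96 to 5.55, where it was well above background in 4 myofibers. Myl9, a regulatory light chain of smooth muscle, was higher by 2.40 (SE 0.36, limma, adjusted p = 0.043), which missed the threshold without S6.4 (adjusted p = 0.12). Of 6 genes listed as markers of smooth muscle none passed with either adjustment, and their differences lay between -0.48 and 0.42. The lowest was Des, which is not specific to smooth muscle and was bright in both types (medians 14.55 and 14.14). The others lay between -0.25 and 0.42. The part of smooth muscle in the signal of Myl9 was not tested. Of the markers of other cells none of satellite cell, endothelial, blood or connective tissue lists passed Bonferroni. By Benjamini-Hochberg Ncam1, of 4 satellite cell markers, was lower in type 2B at -2.50, and Col3a1, of 5 connective tissue markers, at -2.45. Of 5 cardiac markers Myh6 and Tnnt2 (-3.92) were lower, while Nppa, Nppb and Tnni3 lay between -0.71 and 0.39 and did not pass. Myh6 passed Bonferroni with and without S6.4, and Tnnt2 only without it (-4.34, limma, adjusted p = 4.9e-04). The part of these markers in the light chain values was not tested.

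Among 7 other kinases and calmodulins, Mylk4, a further member of the light chain kinase family, alone passed the Bonferroni threshold. Its signal was 2.76 to 10.50 in type 1, where it was well above background in 9 myofibers, and 11.48 to 13.38 in type 2B, with no overlap, and it was higher in type 2B by 5.41 (SE 0.68, limma, adjusted p = 0.0028). By Benjamini-Hochberg the calmodulin genes Calm2 and Calm3, whose product activates the kinases, were higher by 1.304 and 1.996. Mylk3, the cardiac kinase, was lower, at -0.97. The list for the phosphatase that removes the phosphate and for its regulators had no gene of 7 past Bonferroni. By Benjamini-Hochberg the regulator Ppp1r14b passed at 1.10 and Ppp1r12a, the phosphatase's myosin-targeting subunit, at -1.09. The latter missed that threshold without S6.4 (limma, adjusted p = 0.056).

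Of 10 heavy chain genes, Myh4 was higher by 11.63, and Myh7, Myh7b, Myh3 and Myh6 were lower, between -8.07 and -5.05, all past Bonferroni. The adult fast heavy chains Myh2 (-4.99) and Myh1 (5.42) passed by Benjamini-Hochberg alone (limma, adjusted p = 0.016 and 0.0030). Since the heavy chain protein typed the myofibers, these values describe the groups. Of 10 further thick filament genes, Mybpc2, the fast myosin binding protein C, was higher by 11.81 and Myom2 by 8.57, and Myom3 was lower, at -7.52, all past Bonferroni. Mybpc2 and Myh4 were each well above background in 5 type 1 myofibers and Myom2 in 7. The median over this list was 0.04, beside 0.03 for all probes tested. Of 9 thin filament and calcium pump genes, Tnni2 and Tnnt3 were higher and Tnnt1, Tnni1, Tnnc1, Tpm3 and Atp2a2 were lower past Bonferroni. By Benjamini-Hochberg Tnnc2 (1.18) and Atp2a1 (0.74) were higher as well.

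**Figure D5:**
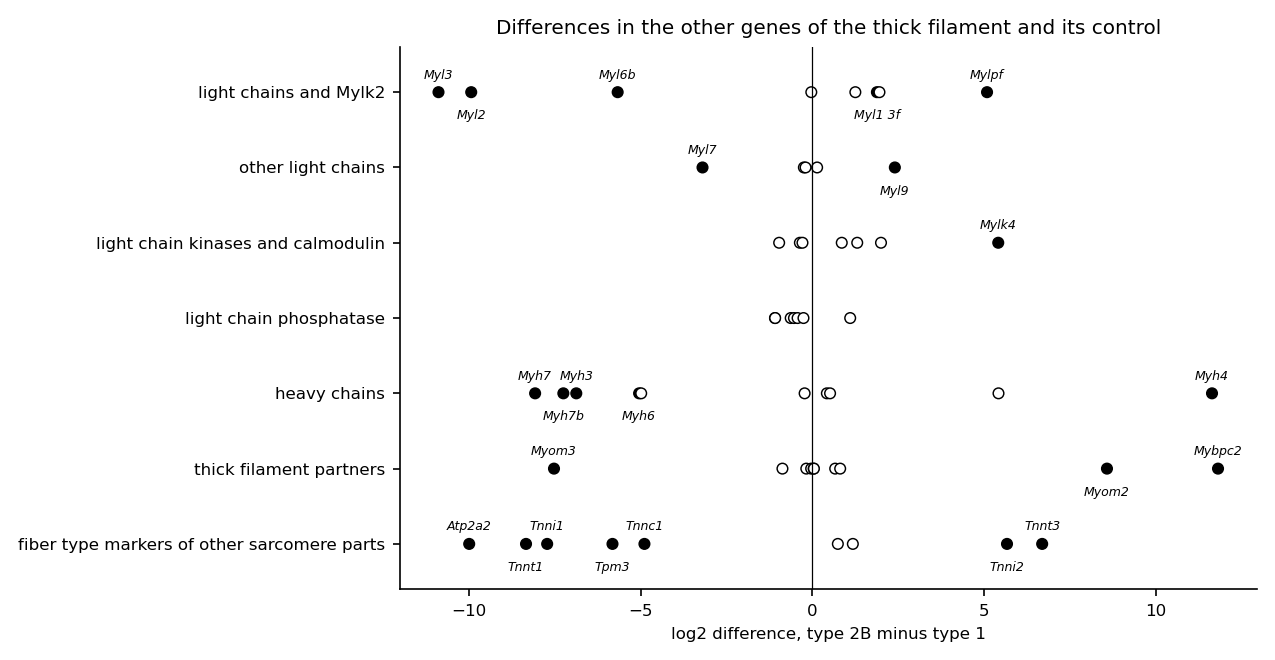
Log2 difference, type 2B minus type 1 (x axis), of every tested gene of each list, with filled circles and names for those past the Bonferroni threshold. The light chains spread from -10.89 to 5.08, and the phosphatase list stayed between -1.09 and 1.10.

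The probes most like each light chain were found by correlation over the 21 myofibers, or 20 for Myl2, which is a description of points that share 2 groups. For Mylpf they were Tnni2 (Pearson r = 0.978), Tpm1 (0.972) and Tnnt3 (0.969). For Myl6b they were Myh7 (0.960), Tecrl (0.957) and Myh7b (0.954). For Myl2 they were the predicted genes Gm5514 (0.997) and Gm5532 (0.993) and sarcolipin, Sln (0.995), an inhibitor of the calcium pump. For Myl3 they were a transcript named NAP111386-1 (0.987), Sln (0.983) and Ldhb (0.983), a lactate dehydrogenase subunit. S6.4 was among the points of all these correlations, which are not given without it. It lay apart from the other type 1 myofibers for Mylpf, Tnni2, Tnnt3, Myl6b, Myh7 and Myh7b.

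All 7 gene names and the accession of each probe were found in the RefSeq table, and 6 genes had a promoter entry there (GRCm38.p6, the 250 bases before the start were searched on both strands). For Myl1 the table held 1 promoter, so that only 1 of its separate promoters was searched. Among the entries searched, that of Myl3 alone held a CArG box, the site of serum response factor. Of 32851 promoters of the table, 1.47% held this box. It is shown because Myl3 had the largest gap of the 7 genes, with the box in capitals and its first base 85 before the start (GRCm38.p6, chr9:110763583-110763612, plus strand).
Myl3, CArG box: gagccaatgcCCTTTTATGGccctgtccct
An E-box, CANNTG, was in the searched promoters of Myl1, Myl2, Mylpf, Myl3 and Myl6b, as in 66.2% of all. None of the entries searched for the 6 genes held a MEF2 site or TCAGGTT.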

How the data were processed

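Single myofibers were isolated with collagenase. Per the labels, RNA was amplified exponentially by whole transcriptome amplification, so that signals carry amplification error, and hybridized in 1 colour. The authors extracted spots with Agilent Feature Extraction 10.7.3.1 (submitters' processing notes), and the deposited intensity values (processed signal, background-subtracted) were used here. Control spots and outlier-flagged spots were left out, arrays quantile normalized and log2 taken, and the spots of a probe then averaged. A probe was tested if flagged positive and significant in at least 50% of the fibers of a type. Differences were fitted in limma 3.58.1 (R 4.3.3) with the mouse as a random block, over 46977 probes, with Bonferroni adjustment at 0.05 as in the study's methods and Benjamini-Hochberg beside it. Adjusted p-values are from limma throughout. Mouse means were compared by an exact permutation test over all groupings (numpy 2.4.6). A t-test with unequal variances (Welch) was also run on the unlogged signals. It kept spots without the positive and significant flag and took p from the t distribution. The study's methods set such spots missing and used permutation, so that it is not their test. The limma fit was tested on simulated data without a mouse effect and without the mouse block. That simulation did not cover the random block.

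Named were all probes of the 7 genes, listed genes past Bonferroni or outermost in their list, the adult heavy chains, and for each gene past the threshold the 3 most correlated probes. Groups came from the labels, and the labels' replicates are separate myofibers, several to a mouse. One listed gene is not reported here. The genes and lists were chosen with earlier results of these data known. The number of arrays limits the precision. Alternatives are given in the closing section. The deposited value table, authors' processed values whose scale was not examined here, had a value for none of the 8 features.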

Additional observations from a re-analysis of the deposited data

Results flagged for a closer look

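Of 24 groups of 6 to 10 values examined (the type 2B myofibers and the mouse means of each type, for each probe), 3 held a value far from the rest, and chance flags about 1 in 20. The Myl3 signal of the type 2B myofiber E9.6 was 1.74, with the next at 5.52, and as mouse 6 gave that myofiber alone, its mouse mean was also 1.74. It was not well above background there. The type 1 mouse mean of Myl6b was lowest in mouse 4, at 7.97, with the next at 9.59. Mouse 4 held S6.4, with 5.36, and S9.4, with 10.59.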

How the results depend on the processing

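Besides leaving out each mouse, 16 alternatives were run for each probe, of which the one without S6.4 at the 75th percentile was chosen after seeing the data. Every probe but Myl4 kept its direction in all of them. Myl2 passed Bonferroni in 16 (-10.51 to -9.06), Myl3 in 15 (-11.19 to -9.64), Myl6b in 13 (-6.52 to -3.38, the latter with normexp), Mylpf in 11 (3.25 to 5.76), the 3f probe of Myl1 in 11 (1.73 to 2.15), Myl1 in 3 (1.12 to 1.64) and Mylk2 in none (1.48 to 2.77). When mouse was made a fixed block, the 3f probe (2.12), Mylpf (5.76) and Myl6b (-5.11) missed the threshold. On the 8 arrays of slide 1 alone the 3f probe (2.15), Myl3 (-11.19), Mylpf (5.64) and Myl6b (-4.19) did. On the other slides the 3f probe (1.73) did, and with the slide as a fixed block Mylpf (5.60). The Welch t-test gives log2 ratios of the arithmetic means of unlogged signals, another measure than the other values. By that test the 3f probe (1.84), Mylpf (3.25, the low end of its range) and Myl6b (-5.91) missed the threshold and Myl1 (1.18) passed. Myl1 also passed with the 75th percentile (1.61) and with that and without S6.4 (1.64), and Myl1 (1.25) and Mylk2 (1.95) passed with Benjamini-Hochberg. The probes past the threshold then numbered 2 with the mouse fixed, 1 on slide 1, 3 by the Welch t-test and 3 with the replicate block. The cause was not tested.

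Myl4 turned its sign with the 75th percentile (0.051), means per mouse (0.15), the slide (0.070) or scan day (0.17) as a block and on slide 1 (1.59), and its mouse means differed by -0.12 without S6.4 against 0.15 with it. Without S6.4 Mylpf was at 5.57. Leaving out each mouse gave -0.28 to 0.34 for Myl4, 1.09 to 1.33 for Myl1, 1.67 to 1.94 for its 3f probe, -10.04 to -9.83 for Myl2, -11.10 to -10.46 for Myl3, 4.37 to 5.50 for Mylpf, -6.03 to -5.40 for Myl6b and 1.73 to 2.13 for Mylk2, with 3 to 5 probes past the threshold.

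With the labels' numbers as a replicate block the 3f probe (1.88) and Mylpf (5.06) missed the threshold. The numbers only name the myofibers: over 10 same-numbered pairs the correlation of deviations was -0.16 to 0.20, and 1 myofiber correlated best with its own number. The deposited value table could not be run, as it had no value for these probes. Signal over background limits the folds of Myl3 and Myl6b, whose type 2B signals were partly near background, and the heavy chain mRNA of S6.4 went against its label.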
